A study of Mus musculus with 70 samples.

Results

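The skeletal muscle genes (10 in all: Chrna1, Trim54, Cavin4, Ckm, Des, Myog, Myh3, Tnnt1, Actc1 and Acta1) were followed through repeated passage of a renal cancer line in mice. They are 10 of the 21154 gene symbols that the array measured, and they were read by 13 probes: Chrna1, Myh3 and Tnnt1 had a pair each and the other genes 1 each. Chrna1, Trim54 and Cavin4 were chosen by the size of their changes in these arrays, so their values are a description and carry no test. The other 7 genes were tested together with all probes on the array.

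The cells were RENCA, a mouse renal adenocarcinoma line marked with GFP, grown in female wild-type BALB/c mice. P0 was the line before any mouse (2 RNA samples). KPT lines came from the primary tumour after implantation into the kidney, T-LM lines from lung metastases that followed tail vein injection, and K-LM lines from lung metastases after implantation into the kidney. Each line was recovered and injected again for 6 rounds (P1 to P6), and 70 arrays of 65 RNA samples were read: 5, 2, 2, 3, 5 and 5 samples of KPT, 5, 2, 3, 4, 6 and 4 of T-LM, and 1, 1, 5, 3, 4 and 3 of K-LM. The paper states that each route and passage used several mice. The labels do not say whether the samples of a group came from separate mice, so p-values measure only the spread between these samples, which may be technical. The labels give no age for the mice, and the paper's methods give 6 weeks.

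Skeletal muscle fibres form when myoblasts fuse, under transcription factors such as myogenin (Myog) that bind E-boxes in the promoters of muscle genes. The fibre then holds the contractile filaments, the desmin network that ties them together, creatine kinase for energy, and the acetylcholine receptor that takes the signal of the nerve. None of these is a usual product of kidney epithelium, the origin of this cancer. The labelled origin was checked with 7 markers of kidney tubule epithelium, which were detected only in part. Of 65 RNA samples, Pax8, Krt8 and Krt18 were well above background in all, Cdh16 in 21, Epcam in 5, and Pax2 and Lrp2 in none.

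The promoters of the 3 genes chosen for their changes, and of Acta1, which was called higher from P0 to P6 in T-LM, are shown because E-boxes are the classical element of muscle promoters. The sequences are from RefSeq (GRCm38.p6) and run from 250 bases before to 50 bases after the start of the gene, 5′ to 3′, and promoters of all 10 genes were found in the table. Capitals mark every E-box, CANNTG, which reads the same on both strands. Chrna1 lies at chr2:73580289-73580588 on the minus strand, Trim54 at chr5:31116362-31116661 on the plus strand, Cavin4 at chr4:48663264-48663563 on the plus strand and Acta1 at chr8:123894726-123895025 on the minus strand.
Chrna1: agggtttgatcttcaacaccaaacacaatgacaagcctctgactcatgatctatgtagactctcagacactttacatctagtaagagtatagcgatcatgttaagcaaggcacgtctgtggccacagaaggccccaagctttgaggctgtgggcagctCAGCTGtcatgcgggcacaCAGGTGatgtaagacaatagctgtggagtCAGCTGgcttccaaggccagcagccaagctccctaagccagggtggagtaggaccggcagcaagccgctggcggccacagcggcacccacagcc
Trim54: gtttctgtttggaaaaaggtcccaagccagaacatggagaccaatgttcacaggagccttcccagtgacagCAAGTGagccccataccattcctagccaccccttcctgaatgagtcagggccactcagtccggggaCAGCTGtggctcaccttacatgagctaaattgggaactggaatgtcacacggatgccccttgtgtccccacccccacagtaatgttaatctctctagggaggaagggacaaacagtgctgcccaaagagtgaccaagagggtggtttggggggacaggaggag
Cavin4: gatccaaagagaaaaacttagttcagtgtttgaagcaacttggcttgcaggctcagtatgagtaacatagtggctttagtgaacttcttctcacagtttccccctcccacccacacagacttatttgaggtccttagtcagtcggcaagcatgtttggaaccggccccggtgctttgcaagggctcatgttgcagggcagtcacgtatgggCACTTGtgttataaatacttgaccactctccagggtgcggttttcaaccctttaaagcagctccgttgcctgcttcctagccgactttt
Acta1: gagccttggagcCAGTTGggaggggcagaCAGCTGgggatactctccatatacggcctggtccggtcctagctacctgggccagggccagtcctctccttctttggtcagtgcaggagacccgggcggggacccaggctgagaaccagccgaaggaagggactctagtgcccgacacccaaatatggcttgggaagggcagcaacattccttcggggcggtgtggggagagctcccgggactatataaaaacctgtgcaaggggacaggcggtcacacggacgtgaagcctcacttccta
Chrna1 held 3 E-boxes, Trim54 and Acta1 2 each, and Cavin4 1. At least 1 E-box was present in all 10 promoters, but also in 72.3% of 32851 promoters of this length, and 2 or more were present in 39.6%. A CArG box, the element of serum response factor, was found in Acta1 and Actc1 alone of the 10, and in 1.6% of all promoters, and it overlapped no E-box there. These matches describe the letters only.

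Each level is a processed signal on the log2 scale, set relative to its own array's 75th percentile over the probes detected on every array, so 0 is a bright probe. The scanner software marked each spot as well above background or not, and an RNA sample was taken as detected when at least 1 of its arrays passed. The lowest level that passed lay between -7.64 and -5.00 over arrays, so detection also depended on the array. Levels are compared between samples for the same probe and never between genes. No member was saturated on any array.

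Across the 65 samples, Des was detected in 62, Cavin4 in 56, Acta1 in 42, Chrna1 in 41, Tnnt1 in 30, Trim54 in 20, Myh3 in 7, Actc1 in 3, Myog in 1 and Ckm in none. Of the 130 genes of a wider muscle list, 102 were detected in at least 1 sample and 28 in none.  Among the myogenic regulators, Eya1, Mef2a and Smyd1 were detected in all 65 samples, Six4 in 62, Mef2d in 49, Mymk in 22, Pax3 in 9, Mef2c in 2, and Mymx and Myog in 1 each. Myod1, Myf5, Myf6 and Pax7, which commit cells to the muscle lineage, and Msc were not detected in any. Of 11 genes of the nerve-muscle synapse, Rapsn was detected in 65 samples, Chrna1 in 41, Chrnb1 in 10 and Chrnd, Colq and Ache in 1 each, and Chrng, Chrne, Musk, Dok7 and Lrp4 in none. At P0 only Des was detected among the 10 genes.

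**Figure D1:**
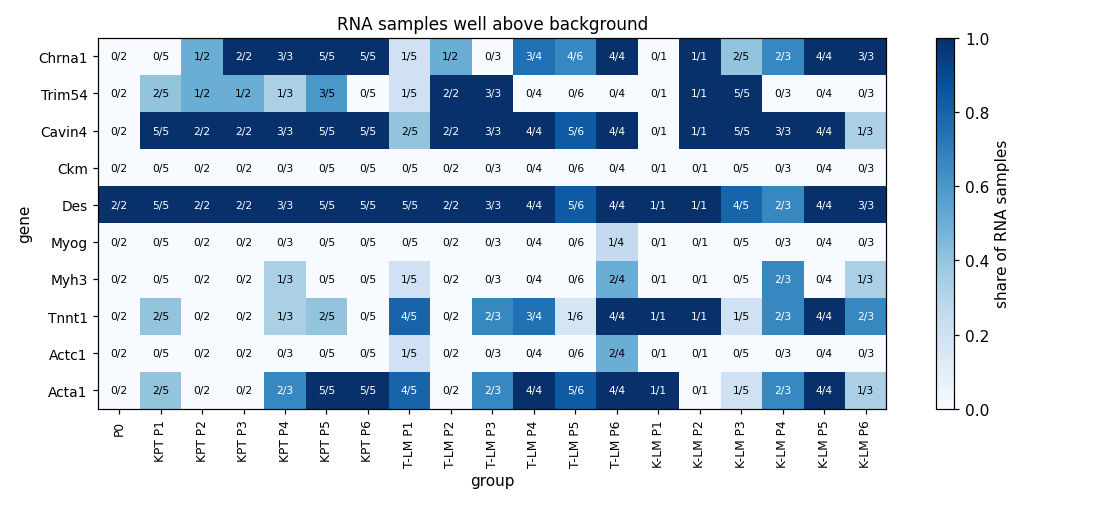
Share of RNA samples in which each gene (rows) was well above background, by group (columns), with the number of samples written in each cell. Des filled nearly every column, Ckm none, and Chrna1, Trim54 and Cavin4 were absent at P0 and present in later groups.

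A few arrays stood apart. T-LM P1 replicate 2 had 55.1% of all probes well above background, against a median of 32.9% and no more than 41.4% on any other array, and 84 of the 130 list genes were detected in it, against 40 to 48 in the other T-LM P1 samples. T-LM P6 replicates 2 and 3 had 63 and 55 list genes, against 37 and 38 in the other 2 samples. Repeat arrays were made of 5 RNA samples (both P0 and KPT P6 replicates 1, 2 and 4) on a later slide that also carried all K-LM P6 arrays, and slide, scan and software version cannot be told apart there. On that slide Cavin4, Chrna1 and Trim54 read lower for the same P0 RNA (Cavin4 by -1.54 and -1.30). For P0, Acta1 moved by 0.29 and -1.22 and Tnnt1 by -0.09 and -0.90. Among detected genes of KPT P6, Cavin4 moved by -0.03 to 0.19, Chrna1 by -0.10 to 0.24, Des by -0.23 to 0.24 and Acta1 by -0.20 to 0.54.

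Chrna1, the alpha subunit of the muscle acetylcholine receptor and the part that binds acetylcholine, came on in all 3 routes. At P0 its levels were -8.82 and -8.08, not well above background. In KPT it was not detected in any of 5 P1 samples, and it reached -5.55 and -5.51 at P3, -4.90, -4.88 and -3.66 at P4, and -4.37, -4.19, -3.73, -3.25 and -3.21 at P5. At P6 the 5 KPT samples lay at -2.73, -2.61, -2.56, -2.53 and -2.52 (SD 0.09, n = 5). No KPT sample of P6 overlapped P5, and no sample of P3 to P6 overlapped P0.

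In T-LM, Chrna1 lagged behind from P3 on. It was detected in 1 of 5 samples at P1 and in 1 of 2 at P2, as in KPT P2, and its mean went from -6.60 at P2 to -7.57 at P3. None of the 3 samples of P3 was detected (-8.12, -7.69 and -6.90). At P6 all 4 samples were, at -4.27, -4.04, -3.87 and -2.74, replicate 2 being the highest. In K-LM, 2 of 5 samples were detected at P3, all 4 at P5 (-5.03 to -3.59), and all 3 at P6, at -5.48, -4.99 and -4.34. The order at P6 was KPT, T-LM, K-LM by the mean (-2.59 ± 0.09, n = 5; -3.73 ± 0.68, n = 4; -4.94 ± 0.57, n = 3; SD). None of the 3 groups overlapped another, but they nearly touched. The lowest KPT sample was at -2.73 and the highest T-LM sample at -2.74, and the lowest T-LM sample at -4.27 and the highest K-LM sample at -4.34. All K-LM P6 arrays were on the later slide.

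Because P0 was below background, the rise of Chrna1 is a bound: at least 10.1-fold for KPT, 4.68-fold for T-LM and 3.21-fold for K-LM. The bound sets the bright group's mean against the P0 mean with each array raised to its lowest passing level, and it holds no term for the slide. For KPT and T-LM only the first P0 arrays entered (lowest passing levels -6.20 and -5.71). For K-LM the repeat P0 arrays entered too (-7.64 and -6.93), so its bound has a lower baseline and cannot be ranked against the others. The fitted changes were 5.26 (SE 0.36), 4.16 (SE 0.48) and 3.70 (SE 0.64) in the same order, and these comparisons share the P0 samples. Its second, dimmer probe passed background in 4 of 5 KPT P6 samples and in no other group (-6.78 to -6.39 over the 5). Replicates 1 and 2 passed only on the repeat arrays of the later slide, and on the first arrays 2 of the 5 passed. In K-LM the fitted change of this probe from P0 to P6 was -0.01 (SE 0.52).

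Cavin4, a cavin of muscle caveolae also known as a muscle coiled-coil protein, was detected early in KPT and later differed by route. P0 stood at -9.17 and -8.54, below background. All 5 KPT samples were detected at P1 already (-6.49 to -4.57), and both were bright at P2 (-2.92 and -2.27). At P4 the KPT samples read -4.30, -3.89 and -2.93 and those of P5 lay between -4.37 and -2.28, so that several lay below every P2 and P3 sample. At P6 the 5 samples lay at -2.78, -2.72, -2.61, -2.47 and -2.28, again within the range of P2 and P3.

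The lung routes ended lower. In T-LM, Cavin4 reached -3.19, -2.87 and -1.46 at P3 and then stood at -4.39 to -3.57 at P4, -5.46 to -4.99 at P5, and -5.62, -5.53, -5.46 and -4.69 at P6. In K-LM it went from -4.67, -3.87, -3.79, -2.88 and -2.60 at P3 to -5.92 to -4.76 at P5 and to -7.60, -7.45 and -6.82 at P6, where 1 of 3 samples passed background. Between P3 and P6 the fitted change of KPT was 0.29 (SE 0.48), that of T-LM -2.81 (SE 0.32) and that of K-LM -3.19 (SE 0.55). P6 did not overlap P3 in T-LM or K-LM, and the 3 routes did not overlap at P6. From P0 to P6, Cavin4 rose at least 10.3-fold in KPT and at least 1.55-fold in T-LM.

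Among T-LM P1 samples, Cavin4 was already bright in the sample named LOT1 (-3.10), where the other 4 lay between -8.44 and -6.67.

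Trim54, a ring-finger protein of the sarcomere that belongs to the MuRF ubiquitin ligases, was detected in every P2 and P3 sample of the lung routes and in none after. Both P0 samples were below background (-8.95 and -8.55). At P1 it was detected in 1 of 5 T-LM samples, replicate 2, and not in the only K-LM sample (-9.46). At P3 all 3 T-LM samples were detected (-5.68, -4.97 and -4.54), as were all 5 of K-LM (-5.58, -5.55, -5.17, -5.14 and -4.87). From P4 to P6 not 1 of the 14 T-LM or 10 K-LM samples was detected. The fall from P3 to P6 was at least 3.15-fold in T-LM and at least 3.40-fold in K-LM. All K-LM P6 arrays were on the later slide, for which the bound holds no term, so the 2 bounds cannot be ranked. The fitted change was -3.80 (SE 0.25) in T-LM and, with a slide term, -2.33 (SE 0.42) in K-LM.

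KPT was mixed for Trim54. It was detected in 2 of 5 samples at P1, 1 of 2 at both P2 and P3, 1 of 3 at P4 (replicate 5 at -5.29, the others at -9.30 and -8.93) and 3 of 5 at P5. At P5, replicates 3, 4 and 5 read -5.39, -5.41 and -4.85 and replicates 1 and 2 read -6.88 and -6.72. None of the 5 KPT P6 samples was detected (-8.04 to -7.31).

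An index of 18 long mRNAs minus 55 ribosomal protein mRNAs, which tracks the balance of long and short messages in the labelled RNA, moved over the same passages. Its mean was -6.76 at P0, -8.41 at KPT P3, -7.95 at T-LM P3 and -8.36 at K-LM P3, and -6.70, -7.14 and -6.75 at P6. At P5 it was also low, -7.88 in T-LM and -8.61 in K-LM, where Trim54 was not detected. With the index as a covariate, the fitted P3 to P6 change of Trim54 was -3.78 in T-LM and -2.40 in K-LM, against -3.80 (SE 0.25) and -2.33 (SE 0.42) without it, and that of Cavin4 was -2.48 and -2.72. These values are a description, and the cause of the changes was not tested.

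**Figure D2:**
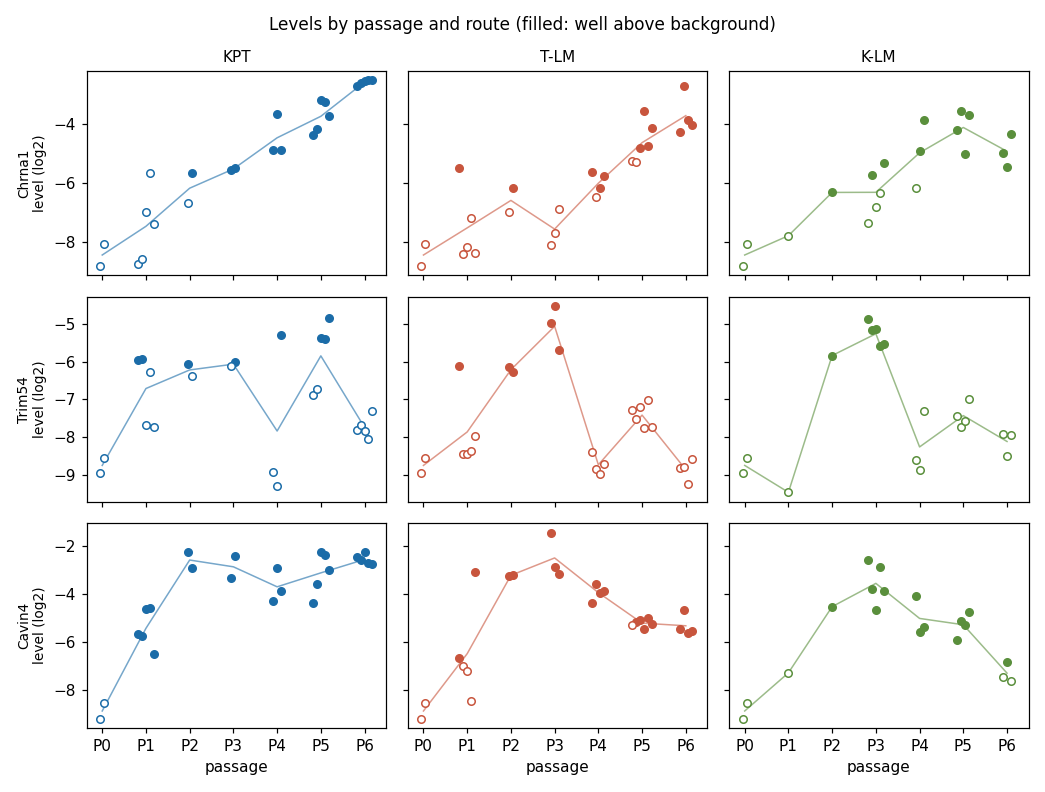
Levels (log2, relative to the array's 75th percentile) of Chrna1, Trim54 and Cavin4 (rows) by passage in the 3 routes (columns), with P0 repeated in each. Each point is 1 RNA sample, filled when well above background, and lines join the group means. Chrna1 climbed from P3 to P6 in KPT and T-LM, Trim54 peaked by P3 in the lung routes, and Cavin4 at P6 was highest in KPT, after lower samples at P4 and P5.

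Over the means of 19 groups, the genes most like Chrna1 among 11881 detected symbols were Robo2 (Pearson r = 0.93), Slc4a11 (0.93) and Arhgap30 (0.92). Those most like Trim54 were Sirt4 (0.88), Hibadh (0.87) and Vps45 (0.87), and those most like Cavin4 were Cul2 (0.89), Erlin1 (0.89) and Ddo (0.88). None of the 9 is on the muscle list. The group means share P0 and lines of descent, so these values describe likeness only.

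Acta1, the actin of skeletal thin filaments, had the largest fitted change from P0 to P6 among the tested members, in T-LM. At P0 it was below background (-8.33 and -7.31). In T-LM it was not detected at P2 (-7.75 and -7.70) and was detected in all 4 samples of P6, at -3.99, -3.30, -2.89 and -1.47. In limma the rise from P0 to P6 was 4.68 (SE 0.82, adjusted p = 0.000577), at least 8.25-fold, and that from P3 to P6 was 3.79 (SE 0.72, adjusted p = 0.00147). T-LM P6 overlapped neither P0 nor P3. The call of Acta1 T-LM P0 to P6 was lost without P0 replicate 1 (change 4.81) or P0 replicate 2 (4.55), each of which leaves 1 P0 sample. That of Acta1 T-LM P3 to P6 was lost under 4 of 18 alternatives, among them leaving out T-LM P3 replicate 2 (3.07, limma adjusted p = 0.0169).

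In KPT, Acta1 was detected in all 5 samples of P6 (-5.23, -5.03, -4.97, -4.81 and -4.44), all above P0, but the change of 2.63 (SE 0.84) missed the threshold of 0.01 in limma (adjusted p = 0.0772). In K-LM 1 of 3 P6 samples was detected (-7.44, -7.05 and -5.05) and the change was 1.34 (SE 1.10, adjusted p = 0.577, limma). Acta1 did not follow passage number: the only K-LM P1 sample stood at -2.35, KPT P1 replicates 4 and 5 at -2.79 and -2.90, and 4 of 5 T-LM P1 samples at -3.88 to -3.19, while LOT1 stood at -8.62.

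Tnnt1, the slow skeletal troponin T that anchors troponin to tropomyosin, also rose in T-LM. Its P0 levels were -8.05 and -7.95, below background, and the 4 T-LM P6 samples read -5.97, -5.18, -4.83 and -3.06. The change in limma was 2.99 (SE 0.66, adjusted p = 0.00428), at least 2.29-fold. The call of Tnnt1 T-LM P0 to P6 was lost under 6 of 17 alternatives. Among them were leaving out P0 replicate 1 (change 2.84) or P0 replicate 2 (3.14), each of which leaves 1 P0 sample. KPT P6 was not detected in any of 5 samples (-7.53 to -7.05; change 0.49, SE 0.69). In K-LM, all 4 P5 samples were detected (-5.62 to -5.21) and 2 of 3 at P6 (-7.40, -6.72 and -5.95; change 1.41, SE 0.55, adjusted p = 0.131, limma). The second Tnnt1 probe passed background in 1 sample, T-LM P1 replicate 2.

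Myh3, the embryonic myosin heavy chain, changed less. P0 read -8.65 and -8.35 and the T-LM P6 samples -6.74, -6.59, -6.16 and -5.85, of which 2 were detected. The fitted change was 1.75 (SE 0.39) from P0 and 1.54 (SE 0.34) from P3, the latter at least 1.13-fold. Myh3 entered these fits only through those 2 detected T-LM P6 samples, the group where it was high, so its calls there are no support for a change and its p-values are not given. With levels raised to a floor at the lowest passing signal, both changes shrank to 0.33. Other samples with Myh3 detected were KPT P4 replicate 5 (-5.34), K-LM P4 replicates 3 and 5 (-6.38 and -5.30), K-LM P6 replicate 1 (-6.64) and T-LM P1 replicate 2 (-6.12). The second Myh3 probe was detected in 4 samples.

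Des, the intermediate filament protein of muscle that also marks smooth muscle and pericytes, was present from the start (-5.90 and -5.59 at P0) and ranged from -6.54 to -3.10 over all samples. None of its 11 comparisons passed the threshold. Its change from P0 to P6 was 0.80 (SE 0.37) for KPT, 1.17 (SE 0.47) for T-LM and 0.42 (SE 0.34) for K-LM, with limma adjusted p of 0.253, 0.127 and 0.585.

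Myog, Actc1 and Ckm stayed at or near background. Myog was detected in T-LM P6 replicate 2 alone (-4.99), where the other 3 samples of the group read -8.61, -7.32 and -6.86. Actc1, the cardiac actin that developing skeletal muscle also uses, was detected in T-LM P6 replicates 2 and 3 (-3.53 and -5.91) and T-LM P1 replicate 2 (-6.25), and its change from P0 in T-LM was 1.77 (SE 0.87, adjusted p = 0.233, limma). Ckm, the muscle creatine kinase, never exceeded -6.76 and was detected nowhere, so it was tested in no comparison.

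**Figure D3:**
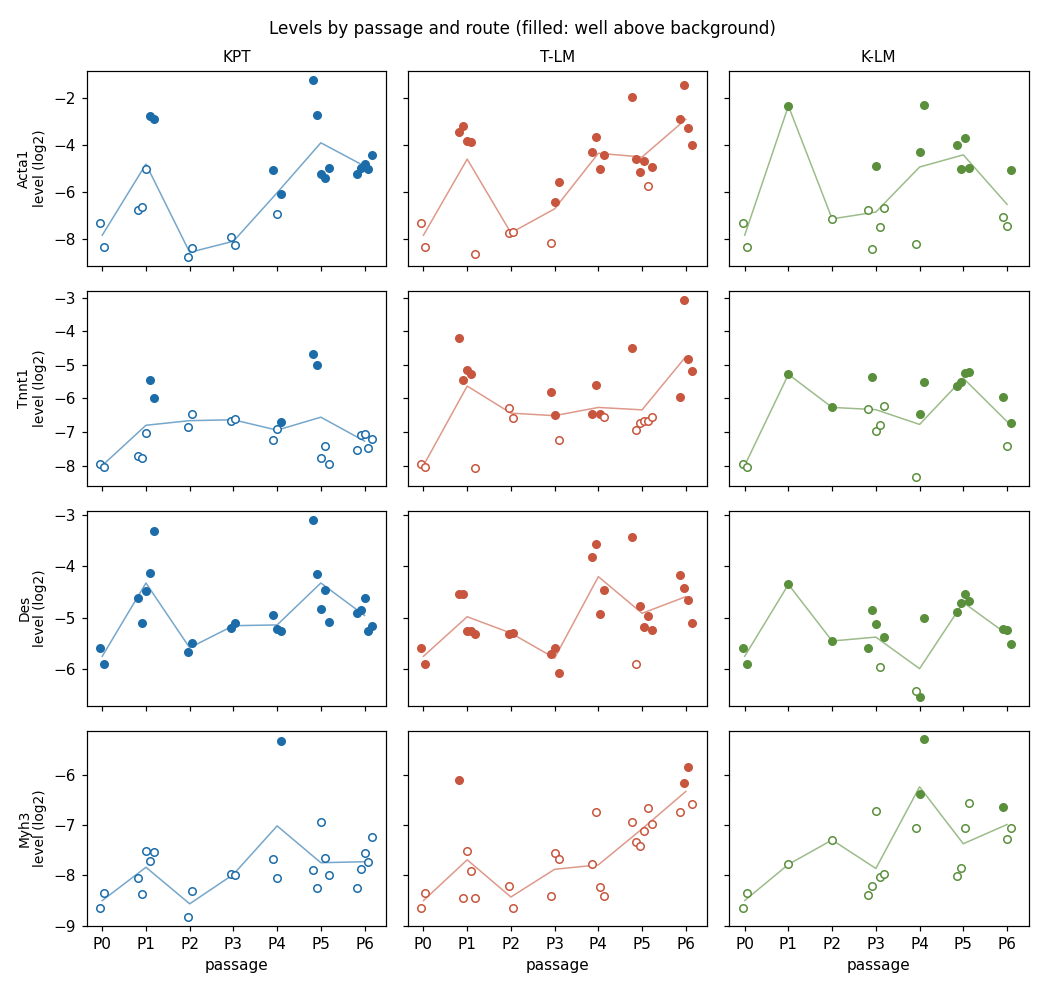
Levels (log2, relative to the array's 75th percentile) of Acta1, Tnnt1, Des and Myh3 (rows) by passage in the 3 routes (columns), with P0 repeated. Each point is 1 RNA sample, filled when well above background, and lines join the group means. In T-LM the group mean of Acta1 was highest at P6, and Acta1 was not detected at P2 in any route.

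The same samples led several genes. T-LM P6 replicate 2 was the highest of its 4 samples for 6 of the 8 genes detected in the group (Chrna1, Cavin4, Myog, Tnnt1, Actc1 and Acta1), and T-LM P1 replicate 2 the highest of 5 for 5 of 8 (Chrna1, Trim54, Myh3, Tnnt1 and Actc1). KPT P5 replicate 1 was the highest for Des (-3.10), Tnnt1 (-4.67) and Acta1 (-1.23), and T-LM P5 replicate 1 for the same 3 genes (-3.43, -4.51 and -1.98). Leaving out T-LM P6 replicate 2 ended neither P0 to P6 call of Acta1 and Tnnt1, whereas leaving out either P0 sample ended both, and Myh3 was no longer tested without T-LM P6 replicate 2 or 3.

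Markers of smooth muscle and myofibroblasts moved with Acta1. Their summed level (8 genes, 6 of them detected, Lmod1 and Myocd in no sample) was below 1 in 17 samples, of which 2 had Acta1 detected (median -7.75). It was 1 to 2 in 18 samples (12 detected, median -5.22), 2 to 3 in 17 (15 detected, median -4.60) and 3 or more in 13 (13 detected, median -2.79). Tnnt1 was detected in 5, 3, 9 and 13 of these samples and Chrna1 in 8, 13, 14 and 6. By group the summed level was 0.49 to 0.95 at P0, 1.44 to 2.03 at KPT P6, 2.55 to 4.29 at T-LM P6 and 1.25 to 2.15 at K-LM P6. Fibroblast markers (all 6 detected, collagens among them) went from -5.19 to -4.99 at P0 to -0.85 to 0.27 at KPT P6, 1.06 to 2.81 at T-LM P6 and 0.06 to 1.63 at K-LM P6. More cells of another type and more RNA per cell cannot be told apart in bulk samples, and the part of these markers in the Acta1 and Tnnt1 results was not tested, nor was whether the Acta1 and Actc1 probes also read other actins. Of 14 markers of mature skeletal fibres, Acta1 was detected in 42 samples, Pvalb in 38, Tnnc2 in 36, Atp2a1 in 24, Tnni2 in 13, Actn3 in 8, Mylpf in 6, Tnnt3 and Mb in 2 each and Myh1 in 1, and Myh2, Myh4, Ryr1 and Ckm in none.

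**Figure D4:**
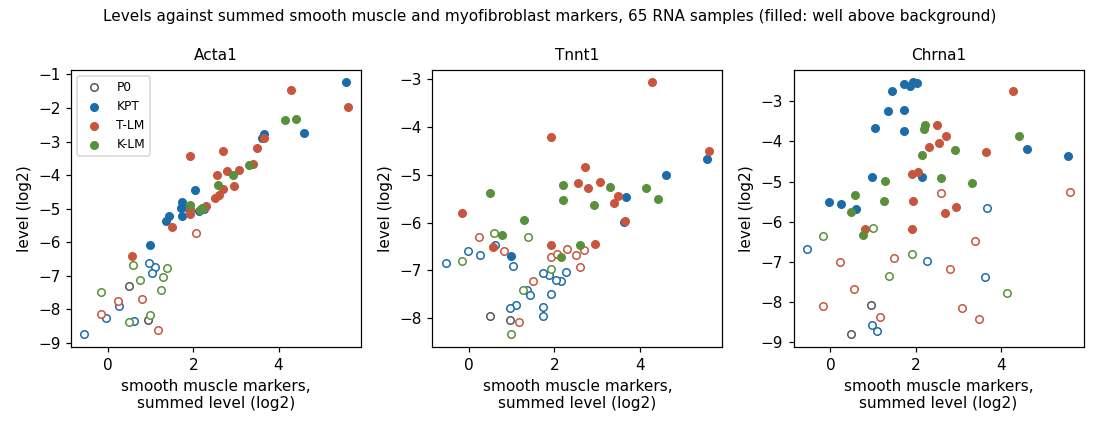
Level (log2) of Acta1, Tnnt1 and Chrna1 against the summed level (log2) of 8 smooth muscle and myofibroblast markers in the 65 RNA samples, coloured by route and filled when well above background. Acta1 was detected in 2 of the 17 samples below a marker level of 1 and in all 13 at 3 or more, and the KPT P6 samples, with high Chrna1, lay between 1.44 and 2.03.

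The routes were compared at P6, in 1 fit with a term for the later slide. T-LM over KPT was higher for Tnnt1 by 2.45 (SE 0.40, limma adjusted p = 0.000222, at least 4.22-fold) and for Acta1 by 1.98 (SE 0.49, adjusted p = 0.00726). The fitted difference of Myh3 was 1.35 (SE 0.26, at least 1.42-fold). Higher calls made up 6.99% of all probes tested there and lower calls 4.53%. Tnnt1 and Myh3 were detected in no KPT P6 sample and entered this fit through the lung routes alone. Myh3 was detected in 2 T-LM and 1 K-LM sample of P6 and would not have been tested without T-LM, its high group. Its call is therefore no support for a difference, and its p-value is not given. With dim levels raised to a floor the Myh3 difference was 0.33 and its call was lost, as it was in 1 model of all routes. The call of Acta1 was lost under 11 of 20 alternatives (adjusted p up to 0.274), among them leaving out KPT P6 replicate 1, 2, 3 or 4 or T-LM P6 replicate 1, 2 or 3 (for Acta1 P6 T-LM over KPT, limma adjusted p = 0.0331 without T-LM P6 replicate 2), while Tnnt1 kept it under all 20. K-LM over T-LM was lower for Acta1, with a difference of -3.47 (SE 0.67, adjusted p = 0.00121, limma), in a comparison where 4.18% of probes were called higher and 7.71% lower. Acta1 was the only 1 of the 5 tested genes called there (4 at an unadjusted p under 0.05), and Tnnt1 and Myh3 were not called. K-LM over KPT called none of the 7 genes, 5 of them tested (2 at an unadjusted p under 0.05), and there 6.25% of probes were called higher and 9.82% lower. As a description, Cavin4 differed by -2.92 (SE 0.30) between T-LM and KPT, by -4.38 (SE 0.35) between K-LM and KPT and by -1.46 (SE 0.42) between K-LM and T-LM.

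**Figure D5:**
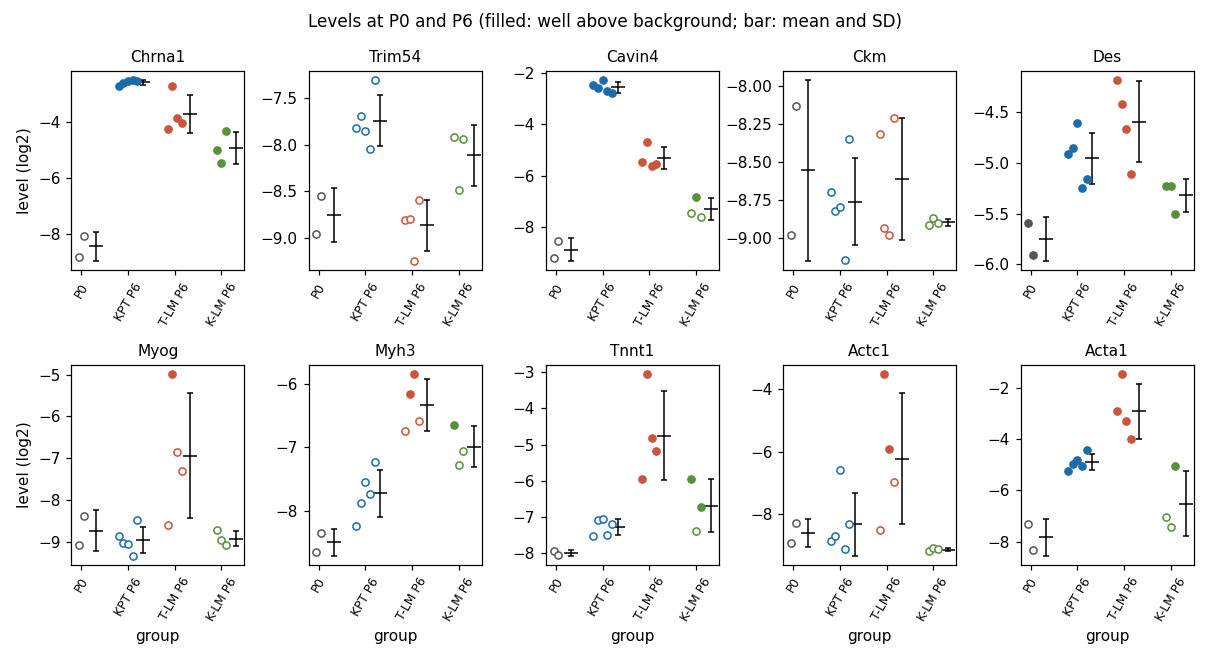
Levels (log2) of the 10 genes at P0 and at P6 of the 3 routes, 1 point per RNA sample, filled when well above background, with mean and SD beside them. Each panel has its own vertical axis. Chrna1 and Cavin4 did not overlap between routes, though the Chrna1 groups nearly touched. The means of Acta1, Tnnt1 and Myh3 were highest in T-LM, where samples of Tnnt1 and Myh3 overlapped those of K-LM.

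For the 7 genes that were not chosen for their changes, the filter of at least 2 detected arrays left 3 tested for KPT, 5 for T-LM and 4 for K-LM from P0 to P6. In T-LM 3 were called higher and none lower, of which Myh3 was admitted to the test by its own high group and Acta1 and Tnnt1 were not, where 5.90% of all probes tested were called higher and 1.41% lower. In KPT none was called (3.40% of probes higher, 0.472% lower; 2 genes at an unadjusted p under 0.05), nor in K-LM (3.66% and 1.16%; 2 genes). From P3 to P6, T-LM called 2 genes higher (Acta1, and Myh3 with the same limit; 5.63% of probes higher, 1.37% lower), KPT none of 3 (0.605% and 0.0810%; 1 gene at an unadjusted p under 0.05) and K-LM none of 4 (2.34% and 1.18%; 1 gene). From P0 to P1, limma called none in KPT (3.27% and 1.13%; 2 genes at an unadjusted p under 0.05) or in T-LM (2.13% and 0.435%; 2 genes). A gene that passed the filter only through a group where it was high had to differ, so these counts do not describe all 7.

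The wider muscle list, without the 3 chosen genes, had 127 genes. From P0 to P6 in T-LM, 53 were tested, 7 were called higher and 1 lower (5.90% and 1.41% of all probes), with a median change of 0.25 against 0.00 over all probes. Only 47 were tested without T-LM P6 replicate 2 or 3, so some list genes entered through those samples. Myh3 was one of them and is among the 7. A gene admitted only by its own high group had to differ. This limit holds for the list counts of every comparison, and the genes it covers were not counted. Tpm2, a tropomyosin that is also expressed in smooth muscle, was below background on the first P0 arrays and rose at least 47-fold from them (fitted change 5.74, SE 0.90, adjusted p = 0.000191, limma). With repeat arrays counted, Tpm2 was detected in 64 of 65 RNA samples, at least 1 P0 sample among them. Cavin2 of the caveolae (4.76, SE 0.80) and Acta1 followed. Myl1, a myosin light chain, fell by 2.52 (SE 0.60), and its call was lost under 9 of 17 alternatives. The 8 calls became 2 without P0 replicate 2, 4 without P0 replicate 1 and 5 without T-LM P6 replicate 3.

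In KPT, 47 list genes were tested and 5 rose from P0 to P6 with none lower (3.40% and 0.472% of all probes; median 0.13 against -0.01). Cavin2 rose by 3.80 (SE 0.25) and Tnnt2, the cardiac troponin T, by 2.20 (SE 0.42). Pax3, a regulator of muscle precursors, was below background at P0 and rose at least 1.64-fold (fitted change 2.80, SE 0.25), and without P0 replicate 2 the count was 3. In K-LM, 55 were tested and 3 were called higher, where 3.66% of all probes were. Cavin2 rose by 3.41 (SE 0.53) and Cox6a2, a muscle subunit of cytochrome oxidase, by 2.13 (SE 0.24). Mybpc2, a myosin-binding protein of fast muscle, was detected in none of the P0 or K-LM P3 samples and in 2 of 3 at P6, and its rise from P0 was at least 1.09-fold (fitted change 2.51, SE 0.54, or 0.24 with dim levels raised to a floor). Mybpc2 appears to have entered this test only through those P6 samples, its high group, so its call is no support for a change. Cavin2 is broadly expressed outside muscle.

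From P3 to P6 the list gave 5 higher and 2 lower of 53 tested in T-LM (5.63% and 1.37% of all probes), 2 higher of 47 in KPT (0.605%) and 2 higher of 55 in K-LM (2.34%). In KPT both were below background at P3: Pax3 rose at least 1.93-fold (fitted change 2.58, SE 0.25) and the troponin C gene Tnnc1 at least 1.10-fold (1.70, SE 0.31), and the call of Tnnc1 was lost under 14 of 18 alternatives. In K-LM the dystroglycan gene Dag1 rose by 2.04 (SE 0.46), and Mybpc2, undetected at P3, had a fitted change of 2.43 (SE 0.49) with no bound above 1. The same limit holds for Mybpc2 here, so its call is no support for a change. In T-LM, Tpm2 rose by 4.06 (SE 0.80) and Acta1 as above. Tnnc1, undetected at P3 and detected in 2 T-LM P6 samples, had a fitted change of 1.95 (SE 0.34) with no bound above 1, and as low as 0.28 among the alternatives. Tnnc1 appears to have entered this test only through those P6 samples, its high group, so its call is no support for a change. The small heat shock protein gene Cryab fell by 1.42 (SE 0.22) and Trim63, a relative of Trim54, by 1.16 (SE 0.25). The T-LM count of 7 became 3 without T-LM P3 replicate 2 and 4 without T-LM P3 replicate 3, T-LM P6 replicate 2 or T-LM P6 replicate 3. The KPT count became 0 without P3 replicate 2 and 1 without P3 replicate 1 or P6 replicates 2, 3, 4 or 5, and the K-LM count 0 without any of the 3 P6 samples and 1 without P3 replicates 4 or 5.

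At P1 in KPT, 3 of 53 list genes were called higher and 2 lower (3.27% and 1.13% of all probes). Nrap, a scaffold of forming myofibrils, rose at least 1.94-fold from below background (fitted change 3.06, SE 0.31), Myom2 of the M band at least 4.14-fold (2.42, SE 0.32) and Cavin2 by 1.73 (SE 0.32), while Cavin3 fell by 1.06 (SE 0.21) and the muscle enolase gene Eno3 by 0.89 (SE 0.17). This count of 5 became 2 without P0 replicate 2 and 3 without P0 replicate 1. In T-LM P1, 2 of 61 were called higher and 1 lower (2.13% and 0.435% of all probes): Cavin2 rose by 4.15 (SE 0.90), Myom2 at least 3.23-fold (fitted change 2.06, SE 0.45), and Eno3 fell by 1.03 (SE 0.23). The count of 3 became 8 without LOT1, 1 without T-LM P1 replicate 2 or 5, and 0 without T-LM P1 replicate 3 or 4 or either P0 sample.

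At P6, T-LM over KPT had 6 list genes higher and 7 lower of 54 tested, where 6.99% and 4.53% of all probes were. Tpm2 (3.39, SE 0.43), the sarcoglycan gene Sgcb (undetected in KPT, at least 3.47-fold; fitted difference 3.06, SE 0.40) and Tnnt1 were higher, and Myl1 (-1.95, SE 0.49), Pax3 (-1.40, SE 0.21) and Cryab (-1.05, SE 0.15) lower. The call of Myl1 there was lost under 13 of 20 alternatives. K-LM over KPT had 3 higher and 5 lower of 54, near the shares over all probes (6.25% and 9.82%), with Mybpc2 (undetected in KPT, at least 1.27-fold; fitted difference 2.48, SE 0.40), the M-band gene Myom3 (0.93, SE 0.20) and Trim63 (0.77, SE 0.17) higher. Mybpc2 appears to have been admitted to this test by K-LM, its high group, so its call is no support for a difference. Pax3 (undetected in K-LM, at least 3.15-fold), Chrnb1, the beta subunit of the same receptor as Chrna1 (undetected in K-LM, at least 2.44-fold), and Tpm1 (-1.37, SE 0.22) were lower, and the count of 8 became 4 and 5 without K-LM P6 replicates 1 and 2. K-LM over T-LM had 7 higher of 54 (4.18% of all probes), led by Myom3 (1.47, SE 0.24), Trim63 (1.44, SE 0.20) and Dag1 (1.20, SE 0.28), and 6 lower (7.71%), led by Acta1, Tpm2 (-2.71, SE 0.59) and Pax3 (undetected in K-LM, at least 1.34-fold; fitted difference -1.60, SE 0.28), which turned to 0.15 with dim levels raised to a floor. That count of 13 became 8 without K-LM P6 replicate 1 or 2.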

How the data were processed

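RNA of RENCA lines was labelled with Cy5 and hybridised to single-colour Agilent arrays. The deposited scanner files hold each spot's signal intensity (a raw median, a local background, and a processed value after background subtraction by the scanner software), and the series table that the authors deposited is in log2 units. Those values followed the log2 raw median signal after quantile normalization (r = 0.99998 over all values; 89.7% within 0.1). The labels name a tissue homogeniser, whereas the study's methods describe recovered cells cultured until GFP-negative cells were no longer seen.

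Control spots (3671 of 62976) and outlier-flagged spots (141 to 454 per array) were left out, and spots were averaged into 55681 probes, of which 28026 were named through RefSeq (GRCm38.p6). Each gene was read by its brightest probe on average, and other probes of a member are given beside it. Levels are log2 processed signal minus the 75th percentile over 11287 probes well above background on all arrays. The number of arrays limits precision.

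Samples were grouped by the route and passage of their labels. The P1 sample LOT1 was placed in T-LM from its labels. KPT and T-LM fits used P0 and the route's P2 to P6 (P1 too for comparisons with P1) on the first arrays, so their P0 and KPT P6 means differ from levels averaged over repeats. K-LM fits (P0, P2 to P6) and P6 fits (all P6 and P0) added the repeat arrays, a later-slide term and RNA sample as a random block (duplicateCorrelation on 4000 probes). Tests were limma 3.58.1 with statmod 1.5.0 in R 4.3.3, 2-sided, on probes well above background on at least 2 arrays, and calls needed a Benjamini-Hochberg adjusted p, over all probes tested, no higher than 0.01. The fits were tested on simulated data. Other normalizations, filters, blocks and omitted samples were run as alternatives; normexp (offset 50) used the median signal, because no mean signal column was at hand. Named genes were the 10 members, up to 3 rises and 3 falls of the list per comparison, and the 3 symbols most like each chosen gene among those well above background on at least 10 arrays. The members and lists were chosen with earlier results of these data known.

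Replicate numbers were checked for pairing: deviations of same-numbered samples correlated at -0.385 to 0.225, so they were not treated as pairs.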

Additional observations from a re-analysis of the deposited data

Results flagged for a closer look

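Of 52 gene and group pairs examined, 6 had a sample set apart from the rest of its group, and chance alone gives about 1 in 20 for a single pair. The pairs share samples and are not independent, so the 6 cannot be weighed against that rate. Trim54 in T-LM P1 replicate 2 stood at -6.11, where the nearest sample was at -7.96. Cavin4 in T-LM P6 replicate 2 stood at -4.69 (nearest -5.46). Tnnt1 stood at -5.60 in T-LM P4 replicate 2 (nearest -6.45) and at -4.51 in T-LM P5 replicate 1 (nearest -6.55). Acta1 stood at -8.62 in the T-LM P1 sample LOT1 (nearest -3.88) and at -1.98 in T-LM P5 replicate 1 (nearest -4.60).

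Routes differed at P6 in limma for Tnnt1 (T-LM over KPT 2.45) and Acta1 (1.98), and for Acta1 between K-LM and T-LM (-3.47). Myh3 (T-LM over KPT 1.35) was flagged too, but it was tested only through its detected T-LM samples, so its call is no support.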

How the results depend on the processing

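Counts are list genes called, without the 3 chosen genes. Requiring detection on all arrays gave 2 from P0 to P6 in KPT (5 as reported) and 2 in T-LM (8), 0, 1 and 1 from P3 to P6 in KPT, T-LM and K-LM (2, 7 and 2), 3 from P0 to P1 in KPT (5), and 3, 5 and 8 at P6 for T-LM over KPT, K-LM over KPT and K-LM over T-LM (13, 8 and 13). Without a filter the counts were 1 and 1 from P3 to P6 in KPT and K-LM, and 3 and 0 from P0 to P1 in KPT and T-LM. Fitting only the 2 groups compared gave 9 and 11 from P0 to P6 in KPT and K-LM (3 in K-LM as reported), 5 and 3 from P3 to P6 in KPT and T-LM, and 1 and 0 from P0 to P1 in KPT and T-LM. One model of all routes gave 4, 5 and 5 at P6, in the order above. Slide as a random block gave 6 from P0 to P6 and 1 from P3 to P6 in K-LM, and 14 for K-LM over KPT; the late slide alone gave 9 from P0 to P6 in K-LM, and no slide term 4 from P3 to P6. The late slide alone could not be fitted for K-LM from P3 to P6 or K-LM over T-LM. Normexp gave 4 from P3 to P6 and 1 from P0 to P1 in T-LM, quantile normalization 1 from P3 to P6 in KPT and 1 from P0 to P1 in T-LM, and the 75th percentile over all probes 1 from P3 to P6 in KPT. A floor on dim probes gave 4 and 1 from P3 to P6 in T-LM and K-LM, and turned Pax3 in K-LM over T-LM to 0.15. The index as a covariate gave 0 and 1 from P3 to P6 in KPT and K-LM. The cause of these shifts was not tested.

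Replicate numbers did not pair the samples. With the replicate number as a block the counts were 1 and 0 from P3 to P6 in KPT and K-LM, 3 and 6 from P0 to P1 in KPT and T-LM, and 8 for T-LM over KPT.

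Leaving out 1 sample at a time gave 3 to 5 calls for KPT P0 to P6, 2 to 7 calls for T-LM P0 to P6, 2 to 3 calls for K-LM P0 to P6, 0 to 3 calls for KPT P3 to P6, 3 to 8 calls for T-LM P3 to P6, 0 to 3 calls for K-LM P3 to P6, 2 to 6 calls for KPT P0 to P1, 0 to 8 calls for T-LM P0 to P1, 9 to 12 calls for P6 T-LM over KPT, 4 to 8 calls for P6 K-LM over KPT, 8 to 13 calls for P6 K-LM over T-LM. Many dim levels lay near background, where the scanner's detection flag, not the level, limits what can be read.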
